A study of Mus musculus with 9 samples.

Results

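AP-1 is a family of transcription factors that bind DNA as pairs of basic leucine zipper (bZIP) proteins. A Fos protein must pair with a partner, most often a Jun protein, whereas Jun proteins can also pair with each other. BATF proteins pair with Jun proteins and, in T cells, often bind next to IRF4 or IRF8, and Atf3 and Maf are further bZIP factors with their own sites. In T cells, Fos and Jun genes are induced within minutes of receptor stimulation, Batf takes part in effector differentiation and Maf drives cytokine genes such as Il4, Il10 and Il21.

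The 10 genes described here were Fos, Fosb, Fosl2, Jun, Junb, Jund, Batf, Batf3, Atf3 and Maf, chosen by name from the 22380 protein-coding genes of the mm9 annotation. The data were H3K27ac ChIP-seq profiles of naive CD8+ T cells sorted from the spleen. H3K27ac is acetylation of lysine on histone H3, a mark of active promoters and enhancers. For each gene, a window ran from the gene end to 50 kb upstream of the transcription start site (TSS), and every H3K27ac-enriched island touching that window was counted whole. An island within 1 kb of an annotated TSS of the gene was a promoter island, and the other islands of the window were distal. All 10 genes had a promoter island in both genotypes, and their windows held 41 of the 76633 regions made by merging the islands of the 2 genotypes that shared bases.

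WT cells (labelled wild type) came from mice with intact Tcf7 and Lef1 that carried hCD2-Cre and Rosa26 GFP, and 4 H3K27ac samples were profiled. dKO cells (labelled Tcf1-/-Lef1-/-) came from mice with the same Cre and reporter and floxed alleles of both genes (Tcf7 fl/fl and Lef1 fl/fl), with 3 samples. Both groups therefore carried the Cre transgene and the GFP reporter, and both were sorted as GFP+ TCRbeta+ CD62Lhi CD44lo-med CD8+ cells. The hCD2-Cre transgene is most active in mature peripheral T cells and does not excise in every cell, so GFP served to mark cells in which Cre had acted. The authors pooled the samples of a genotype before calling islands, which leaves 1 list per genotype. The differences given here thus have no replicate check and no test was possible, and the 95% Wilson intervals cover counting error only. In a pooled list, fewer cells carrying the mark and less mark per cell cannot be told apart.

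The WT list held 65563 islands with 82668007 counts over 392.7 Mb, and the dKO list held 82213 islands with 57665047 counts over 429.3 Mb. Counts were therefore divided by the total of their list and are given per 1000000 island counts (CPM). All 8 markers of naive CD8 T cells had a promoter island in both lists, although the promoter counts of 6 of them were lower in dKO by at least 1.5 times. Among markers of other cells, promoter islands were present in both lists for 3 of 3 CD4 T cell genes, 6 of 6 myeloid genes and 2 of 4 NK cell genes (Ncr1 and Klrk1 had none). Islands of the targeted genes check no deletion, because excision of exons leaves the rest of the locus to be marked. The Tcf7 window was at 760.9 CPM in WT and 854.6 CPM in dKO (log2 ratio 0.17), and the Lef1 window at 768.1 and 625.8 CPM (-0.30). Their promoter islands were lower in dKO by counts, at -0.94 for Tcf7 and -1.74 for Lef1. Those islands were also narrower in dKO, at 28.0 kb against 70.0 kb in WT for Tcf7 and 39.6 kb against 104.4 kb for Lef1. By counts per kb the log2 ratios were 0.38 for Tcf7 and -0.34 for Lef1.

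The promoters differed in sequence content, which is shown for the genes that carried a searched motif. The 300 bases around the RefSeq TSS (sequence table of GRCm38.p6, matched exactly to mm9) were searched on both strands for an AP-1 site (TGANTCA), the core of a cAMP response element (CRE, TGACGT), a TCF/LEF site (CTTTGAT or CTTTGAA) and a CArG box. Sequences were found for 9 of the genes, all but Maf. The CRE core, a site for CREB and ATF proteins, is in capitals in the promoters of Fos (chr12:86814590-86814889, + strand), Batf (chr12:87027420-87027719, + strand) and Atf3 (chr1:193007163-193007462, - strand, where the motif reads as its reverse complement):
Fos: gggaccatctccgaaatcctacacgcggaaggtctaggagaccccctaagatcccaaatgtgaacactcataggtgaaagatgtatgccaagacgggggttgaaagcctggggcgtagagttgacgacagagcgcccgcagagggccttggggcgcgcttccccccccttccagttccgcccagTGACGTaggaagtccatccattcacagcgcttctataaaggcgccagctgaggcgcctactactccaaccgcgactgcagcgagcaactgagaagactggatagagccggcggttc
Batf: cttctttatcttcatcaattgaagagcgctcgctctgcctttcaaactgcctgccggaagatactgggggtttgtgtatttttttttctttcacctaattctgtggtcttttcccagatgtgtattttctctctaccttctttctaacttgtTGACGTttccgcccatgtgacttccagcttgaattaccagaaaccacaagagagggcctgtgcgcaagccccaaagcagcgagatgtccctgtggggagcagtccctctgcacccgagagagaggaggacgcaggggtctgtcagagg
Atf3: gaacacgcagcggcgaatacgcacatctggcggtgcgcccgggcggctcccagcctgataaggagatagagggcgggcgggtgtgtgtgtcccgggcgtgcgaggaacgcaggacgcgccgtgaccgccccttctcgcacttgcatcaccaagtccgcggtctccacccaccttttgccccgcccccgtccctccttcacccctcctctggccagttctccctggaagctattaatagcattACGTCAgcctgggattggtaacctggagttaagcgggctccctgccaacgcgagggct
The motif lay at -66 in Fos, -98 in Batf and -8 in Atf3, counted from the TSS, and 8.64% of 18191 promoters held it. None of the 9 promoters held an AP-1 site (7.03% of all promoters), a TCF/LEF site (7.39%) or a CArG box (1.5%) in these letters. The promoter of Batf3 (chr1:192922043-192922342, + strand), shown because its island was among the weakest of any promoter, held none of the 4 motifs and had a GC content of 75.7%:
Batf3: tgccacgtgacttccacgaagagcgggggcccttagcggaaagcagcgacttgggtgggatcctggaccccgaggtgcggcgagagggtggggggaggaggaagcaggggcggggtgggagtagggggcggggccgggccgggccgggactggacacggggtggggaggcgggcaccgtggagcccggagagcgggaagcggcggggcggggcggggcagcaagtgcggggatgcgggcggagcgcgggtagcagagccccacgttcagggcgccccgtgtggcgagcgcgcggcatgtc

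Across the 10 windows, H3K27ac counts differed little between the genotypes for 7 genes and by more than 1.5 times for 3. Maf and Batf3 were higher in dKO by at least 1.5 times, and Atf3 was lower, a call that was lost (log2 ratio -0.28) when islands at the window edge were counted by their share inside it. Of 16488 protein-coding genes with window islands in both lists, 11.4% were higher and 11.5% were lower by that fold. The median log2 ratio of dKO over WT was -0.03 for the 10 genes and -0.03 for all genes, whose middle 50% ran from -0.31 to 0.26. A ratio of counts is the product of a ratio of covered width and a ratio of counts per covered kb. By width, Maf and Batf3 were higher and Atf3 lower (22.2% and 8.99% of all genes), and by counts per kb no gene was higher and Maf and Batf3 were lower (0.431% and 9.29%).

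**Figure D1:**
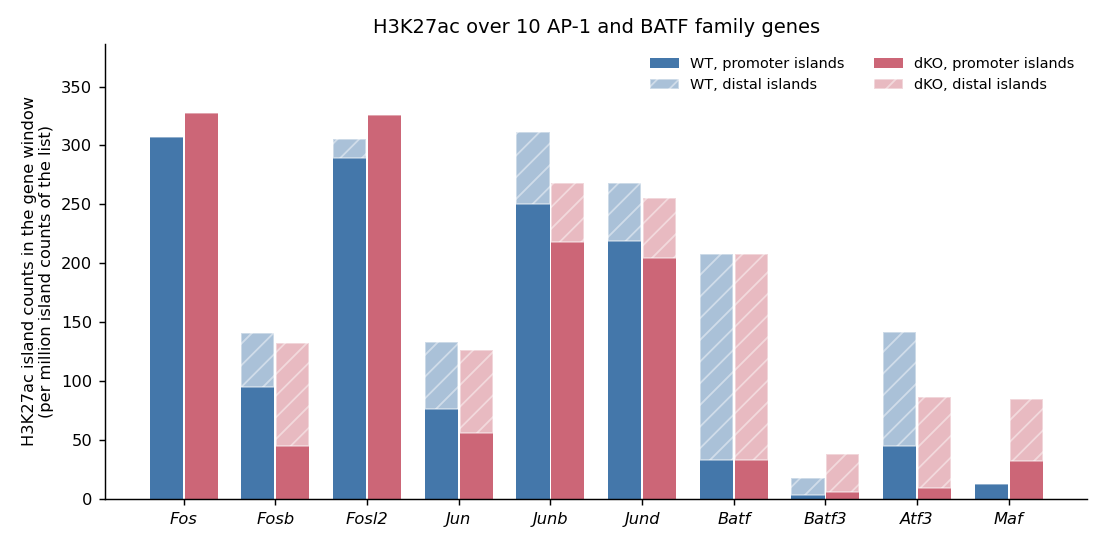
Island counts in the window of each gene (y axis, CPM) for WT (blue) and dKO (red), with promoter islands as solid and distal islands as hatched parts of each bar, 1 pooled list per genotype and hence no error bars. Maf was at 12.5 in WT and 84.6 in dKO and Atf3 at 142.0 and 86.4, whereas Fos, Fosl2 and Batf were nearly level.

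**Figure D2:**
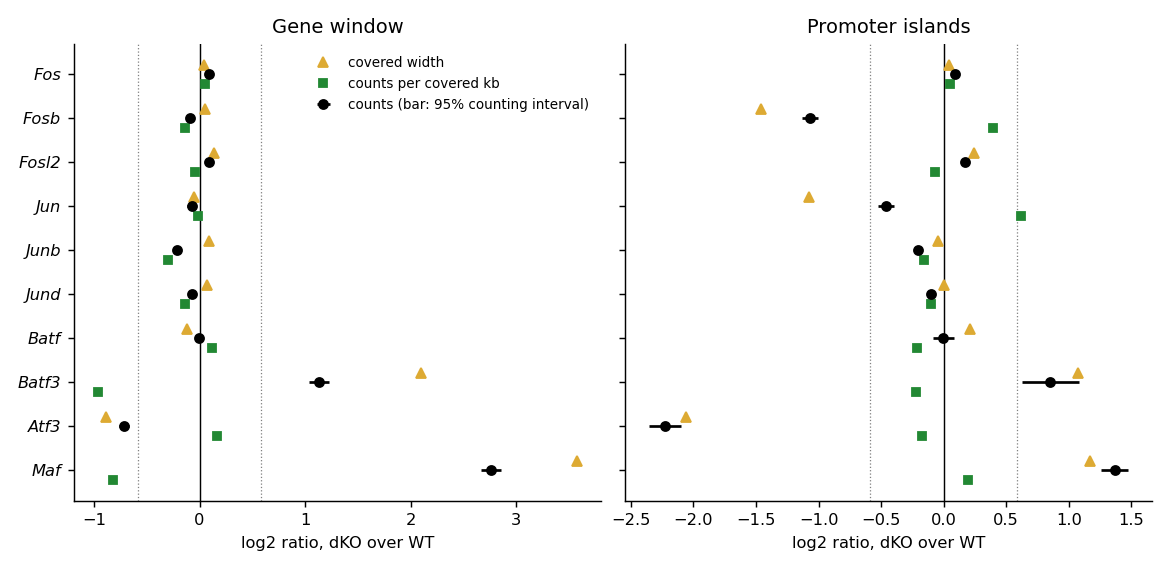
Log2 ratio of dKO over WT (x axis) for counts (black, bar for the 95% counting interval), covered width (yellow) and counts per covered kb (green) of each gene, for the whole window (left) and for the promoter islands alone (right), with dotted lines at 1.5-fold. In the window of Maf, the log2 ratio was 3.58 for width and -0.82 for counts per kb.

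Of the Fos genes, whose products need a Jun partner to bind, Fos and Fosl2 kept broad islands in both genotypes. The Fos promoter island (chr12:86752201-86829200 in WT) was 77.0 kb wide with 25367 counts in WT and 79.4 kb wide with 18869 counts in dKO. It ranked 95 of 65563 islands by width in WT and 93 of 82213 in dKO. Fos had no other island in its window, and its log2 ratio was 0.09 (95% interval 0.07 to 0.12), with 0.05 for counts per kb. The same island therefore carried the whole gene and the region upstream of it.

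Fosl2, which encodes Fra-2, also lay under an island that spanned much of its window. In WT the promoter island (chr5:32371001-32447200) was 76.2 kb wide with 23907 counts, and in dKO 90.2 kb wide with 18808 counts, ranks 98 and 64 by width. Joining the 3 WT islands that the dKO island covered gave 26188 against 18808 counts and a log2 ratio of 0.04 (0.02 to 0.07). That region also holds the promoters of Bre and Gm10463.

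Fosb, a Fos paralog, had 11671 window counts in WT and 7645 in dKO, a log2 ratio of -0.09 (-0.13 to -0.05). Its promoter island alone looked far lower in dKO, at 2610 counts over 9.0 kb against 7845 counts over 24.8 kb (log2 ratio -1.07). The gene body with 1 kb around it, which holds the promoter island, was at -0.98. The dKO list, however, divided the stretch under the WT island into 3 islands. Over the joined region (chr7:19889001-19914600) the counts were 7845 and 4971, and the log2 ratio was -0.14 (-0.19 to -0.09). The lower promoter value of Fosb thus came with a shift of dKO counts from the promoter class to the distal class, where 3826 WT counts faced 5035 dKO counts. A dKO island of 211 counts (chr7:19922401-19924400) had no WT island under it, and the Ercc1 promoter in the same window was at 1493 and 887 counts.

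The Jun genes, which encode the partners of Fos and BATF proteins, lay between -0.21 and -0.07 in their windows. Jun had 11018 window counts in WT and 7303 in dKO, a log2 ratio of -0.07 (-0.12 to -0.03). The Jun promoter island was 15.2 kb wide with 6326 counts in WT and 7.2 kb wide with 3204 counts in dKO (log2 ratio -0.46). Counts per kb of the promoter island were higher in dKO, by 0.62 on the log2 scale. For island values, all promoters means here and below the 13558 genes with promoter islands in both lists. Of these, 2.12% were higher by at least 1.5 times in counts per kb. The dKO island lay over the gene and its start, and the WT island reached further upstream. Joined with the 3 dKO islands beside it (chr4:94715001-94731000), the promoter region was at 6326 and 3828 counts, a log2 ratio of -0.21 (-0.26 to -0.15), with -0.04 for counts per kb. Further upstream, the pair of intergenic Jun regions were at 0.07 and 0.11.

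Junb, a Jun gene with a role in T helper cell differentiation, had the densest promoter of the 10 genes. Its promoter island (chr8:87496601-87515600 in WT) held 20704 counts over 19 kb for WT and 12558 counts over 18.4 kb for dKO. That is 13.2 CPM per kb in WT and 11.8 in dKO, at percentiles 99.1 and 99.7 of promoters with islands in both lists. The log2 ratio was -0.20 (-0.23 to -0.17), and the island also covers the promoter of Hook2. At the other end of the window, the region over the promoters of Asna1 and 2310036O22Rik had a log2 ratio of -0.46 in counts and of -0.61 in counts per kb. A pair of small islands in Hook2 exons, at 116 and 239 counts, were called in dKO alone.

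Jund, the Jun gene with the most constant expression, had 22142 window counts in WT and 14743 in dKO, a log2 ratio of -0.07 (-0.10 to -0.04). The promoter island (chr8:73194201-73242800) had the same borders in both lists. It was 48.6 kb wide with 18094 counts in WT and 11767 in dKO, a log2 ratio of -0.10 (-0.13 to -0.07) that was wholly in counts per kb. The island also holds the promoters of Lsm4 and Gm11175, so the values do not belong to Jund alone.

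Batf, the factor that pairs with Jun proteins in effector T cells, was level over its window and at its promoter. Its window held 17168 counts in WT and 11969 in dKO, a log2 ratio of -0.00 (-0.03 to 0.03). The promoter island was at 2759 and 1922 counts and at -0.00 (-0.09 to 0.08), and the 6 distal islands of each list at 14409 and 10047 counts. Most of the Batf signal was distal, unlike that of Fos, Fosl2, Junb and Jund. The distal region with the most counts (chr12:86927001-86985200) reached beyond the window, covered the promoter of Jdp2, another bZIP gene, and was at 9267 and 7581 counts, a log2 ratio of 0.23 (0.19 to 0.27). The region closest to the promoter on the upstream side (chr12:86986001-87024200) was at 0.11, and that over the last Batf exons (chr12:87035601-87054000) was at 0.00.

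Batf3, best known for its role in dendritic cells, had a weak promoter island in both genotypes. The island held 277 counts over 2.0 kb for WT and 349 counts over 4.2 kb for dKO, with a log2 ratio of 0.85 (0.63 to 1.08). Counts per kb were 138.5 and 83.1, at percentiles 5.55 and 1.20 of promoters with islands in both lists, on the CPM scale. Promoter counts were higher in dKO by at least 1.5 times for 13% of 13558 genes and lower for 20%. The Batf3 window as a whole held 1440 counts in WT and 2197 in dKO, over 5.2 and 22.2 kb, with a log2 ratio of 1.13 (1.03 to 1.22).

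Most of the WT counts in that window belonged to a neighbour. The region over the promoters of Nsl1 and Tatdn3 (chr1:192884201-192887800) held 1163 WT and 617 dKO counts and was lower in dKO, at -0.39 (-0.54 to -0.25). The dKO list added 4 islands with no WT island, of which 3 lay over Nsl1 exons (480, 167 and 465 counts) and the other in a Batf3 intron (119 counts). With islands at promoters of other genes left out, the Batf3 log2 ratio was 3.03, with a window to 10 kb upstream 1.28, with a window to 100 kb upstream 0.35, and within the gene body and 1 kb around it -0.10. The last of these takes in an island beyond the gene end, at 1050 counts in WT and 397 in dKO. The 4 added islands lay at 80.2 to 92.8 counts per kb, below the mean of the dKO list (134.3).

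Atf3, a stress-induced gene of the ATF family, was the only one of the 10 genes to be lower in dKO by at least 1.5 times. Its window held 11739 counts over 58.4 kb for WT and 4984 counts over 31.6 kb for dKO, with a log2 ratio of -0.72 (-0.76 to -0.67). Part of this value came from an island edge: a WT island from the far side of the window edge was counted whole, whereas the dKO list divided the same stretch and kept part of it outside. With edge islands counted by their share inside the window the ratio was -0.28, with a window to 100 kb upstream -0.37, and with merged regions in place of islands -0.37, all short of 1.5-fold. With a window to 10 kb upstream it was -0.60, and within the gene body and 1 kb around it -2.37, where the promoter island and the intronic WT islands made up the counts.

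The promoter of Atf3 showed the same direction at a smaller size once islands were joined. The promoter island held 3732 counts over 20.8 kb for WT and 556 counts over 5.0 kb for dKO (log2 ratio -2.23), but the dKO list had another island under the WT island. The joined region (chr1:193004401-193027800) held 3732 and 1905 counts, a log2 ratio of -0.45 (-0.53 to -0.37), with -0.13 for counts per kb. The large upstream region (chr1:193038001-193109000) was at 15275 and 8690 counts and at -0.29 (-0.33 to -0.26). No other protein-coding promoter lay in this window.

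Atf3 was also the only one of the 10 genes with islands called in WT alone. They held 235 counts (chr1:192997801-192999800, intron), 165 counts (chr1:193002601-193003800, intron) and 215 counts (chr1:193031201-193033000, intergenic). Across the genome, 12.8% of merged regions had an island in WT alone. The Atf3 island of 165 counts held neither an AP-1 nor a TCF/LEF match. Short stretches of the islands of 235 and 215 counts are shown because they hold such sites. Only the site named for each stretch is in capitals. The intergenic stretch also holds the AP-1 match of its island, left in small letters just after the TCF/LEF site. The stretches are the intronic AP-1 site at chr1:192999136-192999195, the intronic TCF/LEF site at chr1:192998471-192998530 and the intergenic TCF/LEF site at chr1:193031827-193031886 (mm9, + strand):
AP-1, intron: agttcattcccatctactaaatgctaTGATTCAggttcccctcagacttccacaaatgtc
TCF/LEF, intron: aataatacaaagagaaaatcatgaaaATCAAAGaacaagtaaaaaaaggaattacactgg
TCF/LEF, intergenic: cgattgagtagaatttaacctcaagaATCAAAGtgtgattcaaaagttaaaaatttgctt
Matches of this kind are common at this length. The intronic island of 2.0 kb held 2 AP-1 and 1 TCF/LEF match, and 46.4% and 56.0% of all regions of its width held at least 1. The intergenic island of 1.8 kb held 1 AP-1 and 2 TCF/LEF matches, against 44.8% and 54.3% of regions of that width.

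Maf, a large bZIP factor that binds its own extended site, had the highest ratio of the 10 genes. In WT its window held a single island at the promoter (chr8:118229401-118232600) with 1032 counts over 3.2 kb. In dKO the window held 9 islands with 4876 counts over 38.2 kb. The log2 ratio was 2.76 (2.66 to 2.86), or 6.77-fold, at percentile 99.7 of all genes, and no other protein-coding promoter lay in the window.

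At the Maf promoter itself, the dKO island (chr8:118228601-118235800) held 1858 counts over 7.2 kb. Its log2 ratio was 1.37 (1.26 to 1.48), of which 1.17 was width and 0.20 was counts per kb. The other 8 dKO islands had no WT island under them. They held 132 to 1028 counts each, at 82.5 to 111.7 counts per kb, below the mean of the dKO list. The largest lay upstream of the gene (chr8:118248801-118258000), and another lay in a Maf intron (chr8:118218601-118224000, 487 counts). Absence from the WT list means that no island was called there, and the smallest island of that list held 58 counts.

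**Figure D3:**
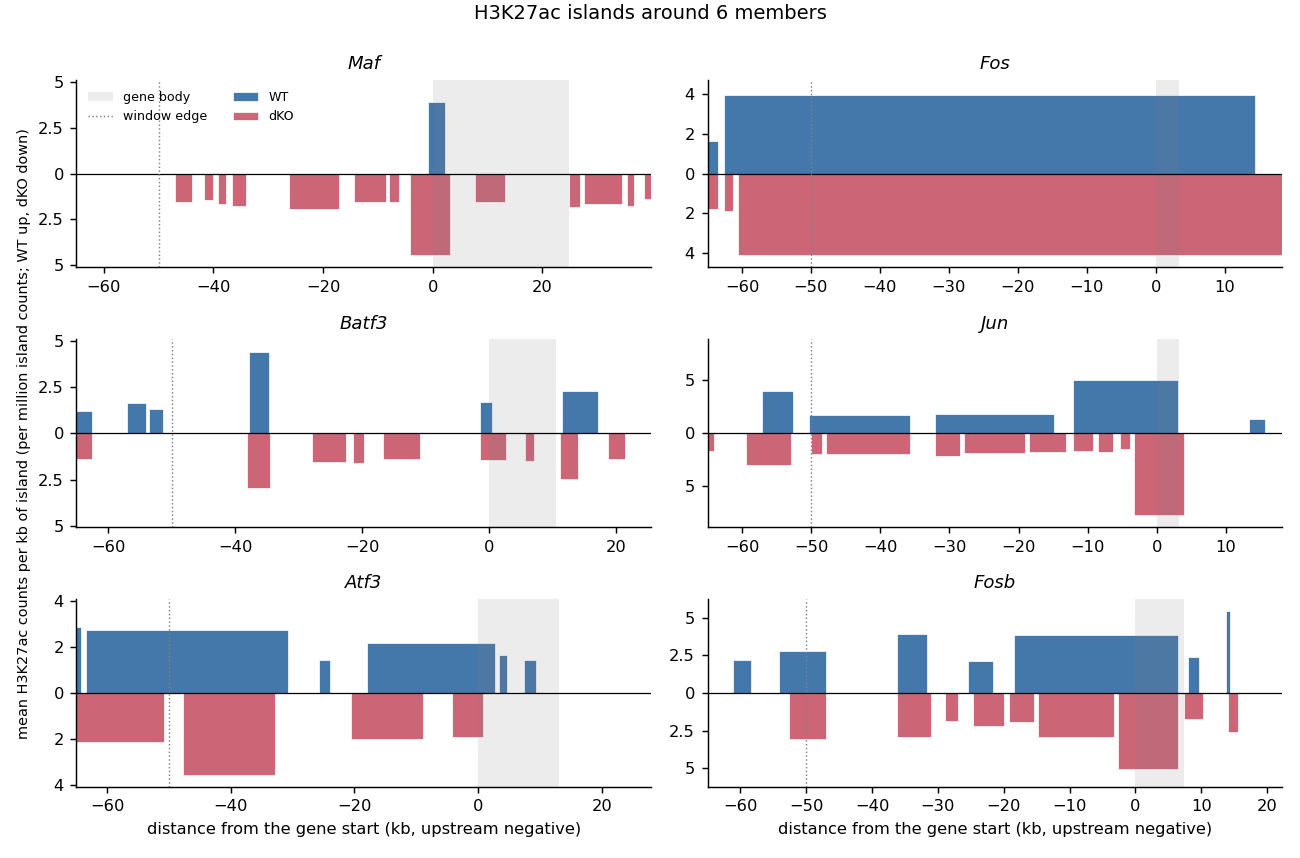
Islands around 6 of the genes, by distance from the gene start (x axis, kb, upstream negative), with the mean level of each island (CPM per kb) upward for WT (blue) and downward for dKO (red). In Maf, the promoter island of WT faces 9 dKO islands in the window, and in Jun, Fosb and Atf3 a wide WT island faces several narrower dKO islands.

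The difference at Maf went on beyond the gene end and stopped close to the upstream edge of the window. In bins of 50 kb, H3K27ac from 100 to 500 kb downstream of the TSS summed to 246.5 CPM over 142.5 kb in WT and 758.1 CPM over 342.7 kb in dKO (log2 ratio 1.62), and dKO was higher in 8 of 8 bins. The bins from 350 kb on lie over Wwox. Past 500 kb, the sums were 894.8 and 1139 CPM, a log2 ratio of 0.35, and dKO was higher in 9 of 10 bins up to 1000 kb. On the upstream side, from 50 to 500 kb, WT had no island and dKO had an island in 1 of 9 bins, at 3.05 CPM. Bins share islands at their edges, so they are not independent measurements.

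**Figure D4:**
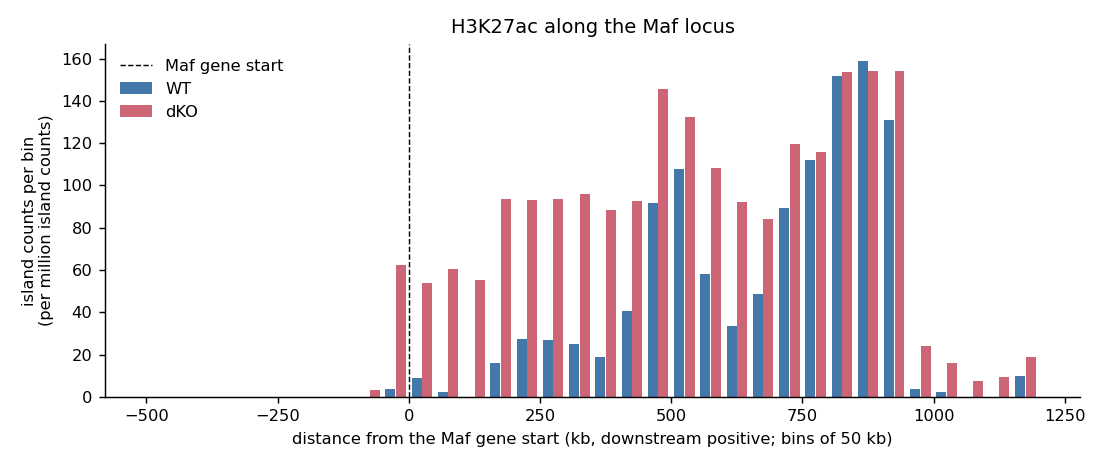
Island counts per bin of 50 kb along the Maf locus (y axis, CPM) against distance from the Maf start (x axis, kb, downstream positive) for WT (blue) and dKO (red). The dKO bars stand above the WT bars in each bin from 100 to 500 kb downstream, and both are close to 0 beyond 100 kb upstream.

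Because Maf and Batf3 are also used by other lymphoid and myeloid cells, marker lists are given beside them. Of 5 gamma delta T cell markers, 3 had a promoter island in WT and 4 in dKO, with sums of 150.5 and 228.2 CPM. Il17a had no island in either list. The windows of Blk and Zbtb16 were higher in dKO by at least 1.5 times, against 11.4% of all genes. The Blk promoter island, however, was lower in dKO (-1.09), and Zbtb16 had a promoter island in dKO alone. The largest rise in the promoter sum was at Sox13, at 36.7 CPM in WT and 107.6 CPM in dKO. Effector or memory T cell markers had promoter islands for 6 of 6 genes in both lists, with sums of 492.7 and 677.7 CPM. Promoter counts were higher in dKO by at least 1.5 times for 3 of them and lower for 2, Eomes (-0.90) and Id2 (-0.92), against 13% and 20% of all promoters. The Il2rb promoter island was 62.8 kb wide in WT and 125 kb in dKO, while the Il2rb window was at -0.04. The sums were 284.1 and 409.1 CPM for B cell markers (Pax5 had a promoter island in dKO alone, Ebf1 in neither list), 151.6 and 216.3 for NK cell markers, 61.9 and 78.4 for CD4 T cell markers and 158.3 and 133.8 for myeloid markers. In the B cell sum the largest rise was at Cd79b (84.7 and 190.0 CPM), whose promoter island was 26.6 kb wide in WT and 71.2 kb in dKO. Cd79a was lower in dKO, at 149.2 and 128.6 CPM. For naive CD8 T cell markers the sums were 2178 in WT and 1221 in dKO. These sums count shared islands once per gene. Cd8a and Cd8b1 had the same WT promoter island (362.3 CPM), and Cd3d and Cd3e the same dKO island (214.9 CPM). The part of such cells in the Maf and Batf3 values was not tested.

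Per covered kb, the order of the genes differed between the genotypes chiefly through Maf and Batf3. In WT, the window levels ran from 10.6 CPM per kb for Junb through 3.99 for Fos, 3.90 for Maf, 3.76 for Jund, 3.72 for Fosl2, 3.49 for Fosb, 3.35 for Batf3, 2.84 for Jun and 2.43 for Atf3 to 2.33 for Batf. In dKO, Junb led at 8.60 and Fos followed at 4.12, while Maf (2.21) and Batf3 (1.72) came last. There is no spread over samples to separate neighbours in this order.

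Of the 41 regions in the 10 windows, 23 had islands in both lists. Among these, 2 were higher in dKO by at least 1.5 times (the promoter regions of Maf and Batf3) and none was lower, against 11.1% and 14.6% of 45322 shared regions. By counts per kb, 1 region was lower (the Asna1 promoter region in the Junb window) and none was higher, against 4.51% and 1.17%. Islands in dKO alone made up 15 regions, of which 8 lay in the Maf window, 4 in that of Batf3, 2 in that of Junb and 1 in that of Fosb. Genome-wide, 28.1% of merged regions had an island in dKO alone.

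At the promoter islands, Maf and Batf3 were higher in dKO by at least 1.5 times, and Fosb and Atf3 were lower (13% and 20% of all promoters). By width, 2 promoters were higher and 3 were lower (24.5% and 17.8%), and by counts per kb Jun alone was higher and none was lower (2.12% and 17.4%). The 3 narrower promoter islands were those of Fosb, Jun and Atf3, and in each the dKO list had further islands under the WT island. The median log2 ratio of promoter counts was -0.05 for the 10 genes and -0.23 for all promoters.

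The distal islands of 7 genes could be compared. Fos had no distal island, and the WT distal island of Fosl2 (1370 counts) lay under the dKO promoter island. Maf had 8 distal islands in dKO (3018 counts) and none in WT, so it has no ratio here. Fosb (0.92) and Batf3 (1.19) were higher in dKO by at least 1.5 times and none was lower, against 19.8% and 13.9% of 15382 genes. The Fosb value includes the islands split from its promoter island, and Batf3 those in Nsl1. Jun was at 0.32, Jund at 0.08, Batf at -0.00, Junb at -0.27 and Atf3 at -0.33. Their median was 0.08, against 0.05 for all genes. By width, 2 of the 7 were higher and none was lower (27.4% and 11.7%), and by counts per kb none was higher and Batf3 was lower (0.897% and 7.64%).

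Other genes of the AP-1 network lay on both sides of the median of all genes. Of 34 further bZIP genes, 33 were found in the annotation and 32 had islands in both lists. None of these was higher and 3 were lower by at least 1.5 times, with a median log2 ratio of 0.02. These counts, and those of the next lists, stand beside 11.4% higher and 11.5% lower among all genes. Those lower were Hlf (-1.76) and Nrl (-1.02), known from liver and retina, and Atf2 (-0.75), a partner of Jun.

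Among 34 MAP kinases and regulators of AP-1, 6 were higher and 2 were lower, with a median of 0.03. The highest were Itch (1.20), a ubiquitin ligase that acts on Jun proteins, the kinase gene Map2k2 (1.13) and Gadd45b (0.76). The lower genes were the Jun kinase gene Mapk8 (-0.62) and the phosphatase gene Dusp6 (-0.59). Of 25 target genes of AP-1 in T cells, 7 were higher and 5 lower, with a median of 0.05. Mmp9 (1.56), Fasl (1.07) and the cytokine gene Il4 (1.03) led on the higher side, and Il21 (-2.27), Havcr2 (-0.94) and Cxcr3 (-0.71) on the lower. These are window values, which can include islands of neighbours. The promoter islands of Itch were at -0.40 and that of Havcr2 was at 0.04, against the direction of their windows. Those of the other genes named here, where both lists had them, went the way of the window.

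Immediate early genes outside AP-1, which together with Fos and Jun respond to tissue dissociation, showed no common direction. Of 29 with islands in both lists, 5 were higher and 4 lower, with a median of -0.04. Klf4 was at -1.08, Btg1 at -0.70 and Nr4a3 at -0.62, whereas Ier5 was at 0.71. The Ier5 promoter island went against its window, at -0.36. Hspa1b (0.76) and Hspa1a (0.62) are near-identical neighbours that share islands, so their values are not separate. Fos, Jun and Junb, which belong to the same response, lay between -0.21 and 0.09 in their windows. Fosb was at -0.09, and the stress-induced Atf3 at -0.72, or -0.28 with edge islands counted by their share.

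**Figure D5:**
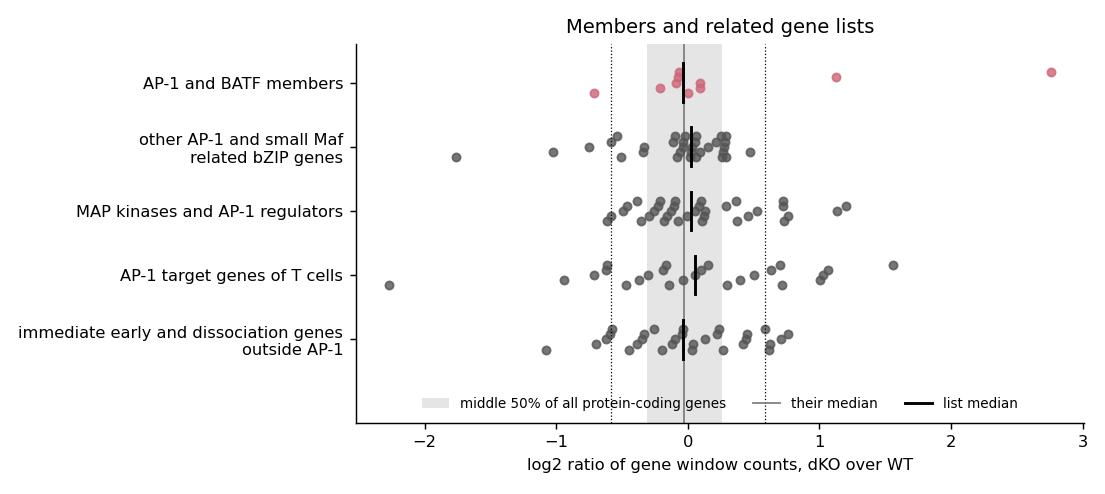
Log2 ratio of window counts, dKO over WT (x axis), for each gene (points) of the 10 AP-1 and BATF genes (red) and of 4 related lists (grey), with the median of each list (black bar), the median and middle 50% of all protein-coding genes (grey line and band) and dotted lines at 1.5-fold. Maf at 2.76 lies beyond every gene of the related lists, and the medians of all 5 lists lie between -0.04 and 0.05.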

How the data were processed

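H3K27ac ChIP-seq of 4 WT and 3 dKO samples was analysed. The authors aligned reads to mm9 with Bowtie2 2.2.5, retained unique alignments (mapping quality over 10), combined the samples of each genotype and called islands with SICER 1.1 at windows of 200 bp, gaps of 400 bp and an FDR under 0.01. Removal of duplicate reads is not stated. The deposited values are read counts per island, scaled neither for depth nor for width. The 2 input samples were not used here.

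Starts in the deposited lists were counted from 0 and are given from 1. Counts were divided by the island total of their list (82668007 in WT and 57665047 in dKO). Such scaling also removes any difference in enrichment, and a change of island borders alone changes a count. Gene positions came from GENCODE vM1 on NCBIM37, which is mm9. Islands sharing at least 1 bp were merged across the lists, and a ratio of 1.5 either way was called. Reads are not independent molecules, so Wilson intervals cover counting error only. No p-value was computed.

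The 10 genes, the related lists, the cell markers and the named-gene rule (members with their promoter region and main distal region, and up to 3 higher and 3 lower genes per list with at least 200 counts) were chosen with earlier results of these data known. Merging and intervals were tested on simulated data. Python 3.11.15, NumPy 2.4.6 and pandas 2.3.3 were used. Alternatives changed the scaling, window, edge rule, measure and fold.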

Additional observations from a re-analysis of the deposited data

How the results depend on the processing

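The calls of Maf and Batf3 as higher and of Atf3 as lower, and the medians of the window, promoter and distal log2 ratios (-0.03, -0.05 and 0.08), were recomputed under each alternative. Scaling by the totals of regions with islands in both lists gave medians of 0.037, 0.019 and 0.146, and setting the median ratio of those regions to 0 gave 0.039, 0.021 and 0.148, shifts of 0.07 for every gene. Counts per kb scaled by mean depth (a shift of 0.13 against scaling by list totals) gave medians of 0.041, 0.043 and 0.0021, and scaled by list totals, an alternative chosen after seeing the data, -0.088 in the window and -0.13 for distal islands. Both gave 0 higher and 2 lower genes, since the ratios turned for Batf3 (-0.84 and -0.96), Maf (-0.69 and -0.82) and Atf3 (0.30 and 0.17): width and counts per kb moved in opposite directions there. With edge islands counted by their share, 0 genes were lower and the distal median was 0.33. A window to 10 kb upstream gave a window median of -0.14 and a distal median of 0.99, and a window to 100 kb gave 1 higher and 0 lower genes and a distal median of -0.14, with Batf3 at 0.35. The gene body with 1 kb at both ends gave 1 higher and 2 lower genes, medians of -0.099 and 0.0025 (distal), Batf3 at -0.10, Atf3 at -2.37 and Fosb at -0.98. Without islands at promoters of other genes the distal median was -0.00057. Merged regions in place of islands (chosen after seeing the data) and a ratio of 2 each left 0 genes lower. The cause of these differences was not tested beyond the construction of each alternative. No paired analysis was possible because each genotype has 1 list called on pooled replicates, and for the same reason no replicate could be left out. Depth limits the weak islands most: an island of the dKO list held at least 43 counts.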
